A study of Mus musculus with 25 samples.

Results

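The genes of MHC class II antigen presentation were followed through 5 sorted mouse myeloid populations, 4 of which had been gated on class II protein at their surface. The set was given by name and holds 10 of the 24537 gene models of the deposited count table: the chain genes of the classical molecules (H2-Aa, H2-Ab1 and H2-Eb1), the invariant chain gene Cd74, the genes of the peptide editor H2-DM (H2-DMa, H2-DMb1 and H2-DMb2), the genes of its inhibitor H2-DO (H2-Oa and H2-Ob), and Ciita. Each symbol matched 1 row, and all 10 genes passed the filter on low counts and were tested among 16961 genes.

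Each of the 25 libraries was made from 200 sorted cells of C57BL6 mice on 1 of 2 diets, with 10% fat (control diet, CD) or 45% fat (high fat diet, HFD). From white adipose tissue (eWAT in the titles) came 4 populations with 2 CD and 2 HFD libraries each. The Tim4+ cells were divided by surface class II into pop1 (MHCII low) and pop2 (MHCII high), and the Tim4- cells into pop3, which lacked CD11c and was MHCII high, and pop4, which was CD11c+ and MHCII+. Monocytes came from blood, were gated by CD115 and Ly6C, and had 6 CD and 3 HFD libraries. No genetic modification is named in the labels, which also do not say whether libraries of a group came from separate animals or how many animals stand behind one, nor how long the diets lasted, so p-values measure the spread between these libraries and part of that may be technical. All adipose CD libraries carry titles of the form CD-CD, so in adipose tissue diet and title series cannot be told apart. The transcription inhibitor flavopiridol was present while collagenase dissociated the adipose tissue, and for blood the labels give lysis only, so tissue, gate and handling cannot be told apart between monocytes and adipose cells.

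Class II molecules present peptides from endosomes to CD4 T cells. The alpha and beta chains assemble in the endoplasmic reticulum on the invariant chain, which blocks the peptide groove and carries the complex to endosomes. There proteases cut the invariant chain down to the fragment CLIP, and H2-DM exchanges CLIP for antigenic peptides, a step that H2-DO restrains. The C57BL6 haplotype makes the I-A molecule from H2-Aa and H2-Ab1, and lacks a functional H2-Ea gene, so that the H2-Eb1 chain has no alpha partner. Transcription of the whole family depends on CIITA, a coactivator that is recruited to a promoter module of S, X and Y boxes bound by the RFX complex, CREB-family proteins and NF-Y.

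Of the 10 genes, 8 lie on chromosome 17 between positions 34092379 and 34316674 (mm10) and Ciita lies on chromosome 16 from 10480072 to 10527640. On chromosome 17 the models run from 34282751 to 34287771 on the minus strand for H2-Aa and, on the plus strand, from 34263227 to 34269418 for H2-Ab1, 34305867 to 34316674 for H2-Eb1, 34122832 to 34139101 for H2-DMa, 34153191 to 34160229 for H2-DMb1, 34145416 to 34151095 for H2-DMb2, 34092379 to 34095234 for H2-Oa and 34238905 to 34245908 for H2-Ob. Promoter sequence from RefSeq (GRCm38.p6, 250 bases before to 50 after the start) was examined for 7 of the 10 genes in 8 windows. Cd74 was left out of this step. The stretches below are shown because they hold the shared module, aligned on it. Capitals mark the X box letters (AAC, any 2 bases, then ATGATG), or AAC alone where the rest of those letters differ, and the Y box letters GATTGG, an inverted CCAAT. In this order they come from chr17:34287859-34287914 on the minus strand and, on the plus strand, chr17:34305766-34305820, chr17:34153087-34153142, chr17:34145116-34145171, chr17:34238808-34238860 and chr17:34092293-34092348.
H2-Aa: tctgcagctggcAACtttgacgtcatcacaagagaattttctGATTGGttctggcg
H2-Eb1: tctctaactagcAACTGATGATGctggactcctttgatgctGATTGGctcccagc
H2-DMb1: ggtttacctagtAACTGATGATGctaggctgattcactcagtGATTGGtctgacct
H2-DMb2: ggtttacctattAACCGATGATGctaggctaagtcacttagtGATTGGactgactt
H2-Ob: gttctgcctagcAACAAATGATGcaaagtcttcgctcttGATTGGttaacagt
H2-Oa: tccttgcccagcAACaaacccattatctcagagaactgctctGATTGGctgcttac

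The letters were chosen after these windows had been seen. Searched on both strands, the X letters occur in 45 of 32851 RefSeq promoter windows of 300 bases (0.137%) and the Y letters in 5292 (16.1%), and the 2 motifs share no positions where they are capitalised here. The X letters followed by the Y letters 10 to 30 bases on, read in the direction of the gene, occur in 4 windows (0.0122%), which belong to H2-Eb1, H2-DMb1, H2-DMb2 and H2-Ob. AAC followed by the Y letters 20 to 30 bases on occurs in 705 windows (2.15%), among them those of all 6 genes printed. Between AAC and the Y letters lie 27 bases in H2-Aa, H2-DMb1, H2-DMb2 and H2-Oa, 26 in H2-Eb1 and 24 in H2-Ob. The stretches of H2-DMb1 and H2-DMb2 are identical at 49 of 56 bases. Neither H2-DMa window holds the module in these letters. A match is a description of the letters, not of a bound site.

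Total counts were 3.75 to 9.34 M per library, 3 counts corresponded to 0.342 to 0.700 CPM (counts per 1 M of the TMM-scaled library), and intervals or floors based on counts cover counting error only. Transcripts of Timd4, Itgax and Ly6c2 followed the labels. Timd4, which encodes Tim4, was read at 88.9 to 626 CPM in pop1 and pop2 and at most 11.9 elsewhere. Itgax, which encodes CD11c, was at 180 to 192 in pop4 and at most 43.7 elsewhere. Ly6c2 was at 434 to 674 in monocytes and at most 21.9 in adipose libraries. Levels of Csf1r, which encodes CD115, are not reported here. Of 11 macrophage markers, 6 tested higher and 3 lower in adipose cells than in monocytes (18.5% of all tested genes in each direction). Their summed levels overlapped, at 3493 to 5175 CPM in pop4 and 3857 to 4688 in monocytes. Among the 11, C1qa was read at 131 to 717 CPM in adipose libraries and at most 0.642 in monocytes. Olfactory and vomeronasal receptor genes, which serve as a measure of background reads, summed to 370 to 594 CPM in pop2, 197 to 602 in pop3, 246 to 585 in pop1, 84.0 to 192 in pop4 and 98.4 to 261 in monocytes. The 10 class II genes together took 0.123% to 0.172% of counts in monocytes, 0.157% to 0.256% in pop1, 0.482% to 0.605% in pop2, 0.517% to 0.571% in pop3 and 0.585% to 0.621% in pop4. In sorted bulk libraries, fewer cells with a transcript and less of it per cell cannot be told apart.

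**Figure D1:**
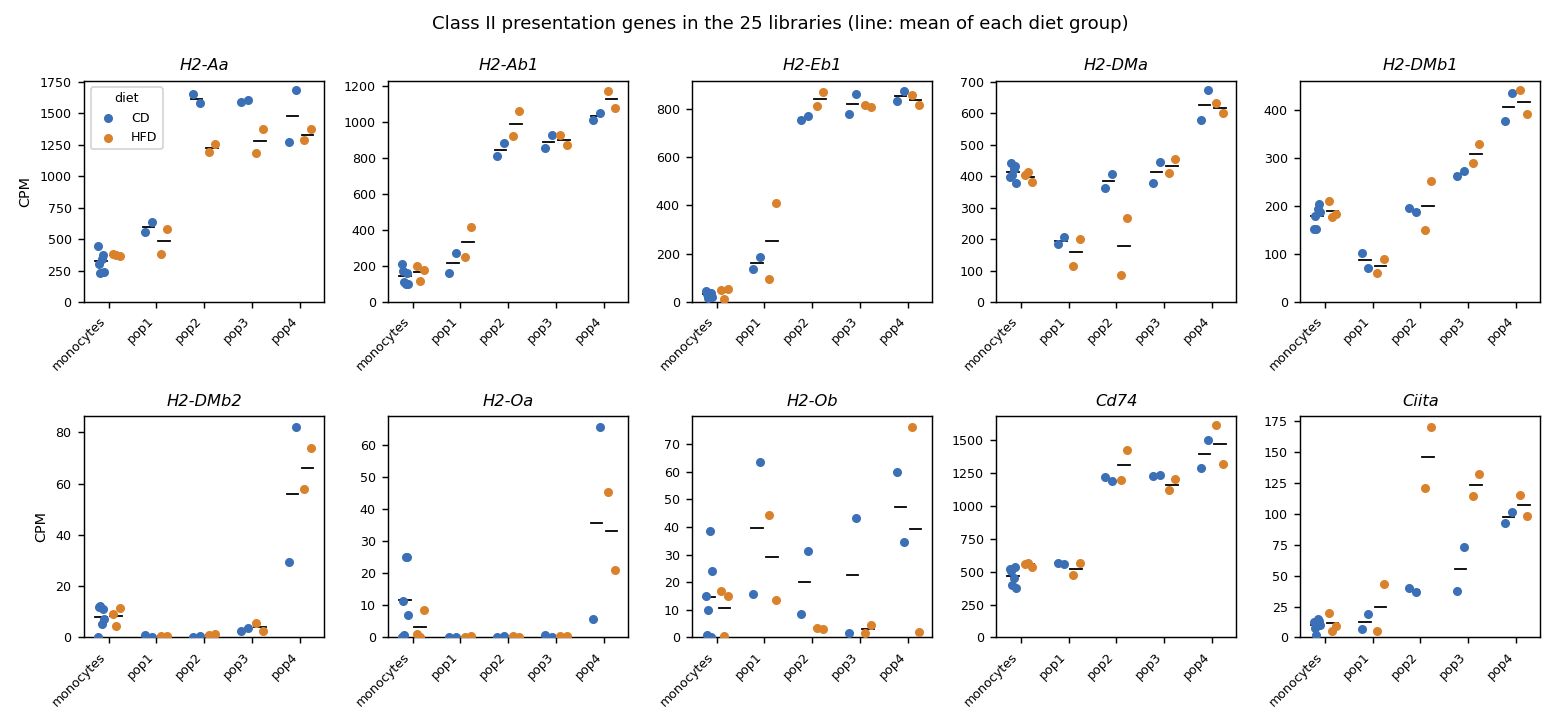
CPM (y axis, linear, from 0) of the 10 genes in each of the 25 libraries, by population (x axis) and diet (colour), with a line at the mean of each diet group. Cd74 and the 3 classical chain genes are low in pop1 and monocytes and high in pop2, pop3 and pop4, whereas H2-DMb2 and H2-Oa reach their highest levels in pop4 (up to 82.1 and 65.6 CPM).

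The transcripts of the classical chains followed the surface gates. H2-Aa, the I-A alpha chain gene, was read in pop1 at 560 and 636 CPM on CD and 384 and 579 on HFD, and in pop2 at 1650 and 1580 on CD and 1194 and 1256 on HFD. In pop3 it was at 1586, 1604 (CD), 1184 and 1375 (HFD) and in pop4 at 1269, 1681 (CD), 1284 and 1370 (HFD). Monocytes ranged from 231 to 449 with a median of 362. No pop1 library reached the lowest library of pop2, pop3 or pop4, the ranges of those 3 populations overlapped, and the pop1 range overlapped that of monocytes.

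H2-Ab1, the I-A beta chain gene, was read at 162, 273 (CD), 252 and 416 CPM (HFD) in pop1 and at 808, 882 (CD), 919 and 1058 (HFD) in pop2. Pop3 held 852, 927 (CD), 927 and 868 (HFD), pop4 1011, 1048 (CD), 1172 and 1078 (HFD), and monocytes 99.2 to 212 (median 163). Pop4 lay above pop3 without overlap, a difference that missed the test (log2 difference of pop3 from pop4 -0.27, SE 0.23, adjusted p = 0.485).

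H2-Eb1, the I-E beta chain gene, showed the widest span of the 3. It was read at 13.3 to 56.2 CPM (median 37.3) in monocytes, at 139, 188 (CD), 94.6 and 411 (HFD) in pop1, at 752, 769 (CD), 812 and 869 (HFD) in pop2, at 776, 863 (CD), 815 and 809 (HFD) in pop3 and at 831, 872 (CD), 856 and 816 (HFD) in pop4. Here pop1 stood above monocytes and below the other adipose populations, with no overlap on either side, and HFD library 3 was the highest of pop1. The other class II loci were near the floor, H2-Eb2 at no more than 3.20 CPM and H2-Ea-ps, the defective I-E alpha gene, at no more than 0.569 in any library.

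Cd74 was read at 569, 555 (CD), 475 and 563 CPM (HFD) in pop1 and at 1218, 1185 (CD), 1196 and 1422 (HFD) in pop2. Pop3 held 1224, 1235 (CD), 1123 and 1200 (HFD), pop4 1285, 1501 (CD), 1617 and 1317 (HFD), and monocytes 377 to 567 (median 517). Pop1 and monocytes overlapped, and both lay below every library of the other populations. Per kilobase of gene model, which allows levels to be compared between genes, pop2 averaged 1337 ± 215 CPM per kb of H2-Aa (SD, n = 4), 894 ± 79.7 of Cd74, 774 ± 88.5 of H2-Ab1 and 482 ± 31.5 of H2-Eb1.

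Between the MHCII low and the MHCII high gate of the Tim4+ cells, 5 of the 10 genes were called, all lower in pop1 (edgeR quasi-likelihood test, p adjusted by Benjamini-Hochberg over all 16961 genes, threshold 0.05), where 0.466% of all tested genes were called and 0.183% were lower. Since the gate used class II protein, the classical chains check the labels here. H2-Ab1 was 3.39-fold lower in pop1 (log2 difference -1.76, SE 0.24, adjusted p = 0.000419), H2-Aa 2.62-fold (-1.39, SE 0.17, adjusted p = 0.000205) and H2-Eb1 3.94-fold (-1.98, SE 0.39, adjusted p = 0.0180). The call of H2-Eb1 was lost without pop1 CD library 7, pop1 HFD library 2 or pop2 CD library 7. It was also lost without both pop2 HFD libraries, where pop1 and pop2 were compared in CD libraries only. Genes that the gate did not measure also differed: Cd74 was 2.32-fold lower (-1.21, SE 0.12, adjusted p = 2.09e-05) and H2-DMb1 2.43-fold lower (-1.28, SE 0.19, adjusted p = 0.00135), and both calls held in all 16 alternatives. H2-DMa missed the test (-0.57, SE 0.22, adjusted p = 0.358). It was called lower in pop1 without both pop2 HFD libraries, in CD libraries only (-1.06, edgeR adjusted p = 0.0293). Without pop2 HFD library 2 its difference was -0.85, with library 3 then alone in its group. The median log2 difference of the 10 genes was -1.25, and that of all tested genes -0.07.

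The genes of H2-DM, the editor that removes CLIP, had another order. H2-DMa, its alpha chain gene, was read at 185, 205 (CD), 116 and 202 CPM (HFD) in pop1, at 362, 408 (CD), 87.3 and 267 (HFD) in pop2, at 379, 444 (CD), 411 and 455 (HFD) in pop3, at 580, 673 (CD), 634 and 600 (HFD) in pop4 and at 378 to 441 (median 404) in monocytes. Pop4 lay above every other library, pop3 overlapped monocytes, and pop1 lay below monocytes. The 2 pop2 HFD libraries stood apart from each other and below both pop2 CD libraries.

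H2-DMb1, the main beta chain gene, was read at 102, 71.8 (CD), 59.6 and 90.3 CPM (HFD) in pop1, at 196, 187 (CD), 150 and 251 (HFD) in pop2, at 261, 274 (CD), 290 and 328 (HFD) in pop3 and at 376, 434 (CD), 441 and 391 (HFD) in pop4. Monocytes ranged from 153 to 211 (median 183). The 4 adipose populations did not overlap one another in the order pop1, pop2, pop3, pop4, and monocytes overlapped pop2 only.

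H2-DMb2, the second beta chain gene, was highest in pop4 and near the floor in the Tim4+ populations. It was read in pop4 at 29.5, 82.1 (CD), 58.0 and 73.7 CPM (HFD), and at 2.49, 3.59 (CD), 5.56 and 2.5 (HFD) in pop3. Pop1 held 0.146 to 1.09 CPM, pop2 0 to 1.17 and monocytes 0.374 to 12.1 (median 9.24). Per kilobase, H2-DMb1 in pop4 averaged 322 ± 25 CPM per kb and H2-DMb2 78.1 ± 29.7 (SD, n = 4 each). Reads from these related genes could have been split or dropped, since the treatment of reads with several matches is not given in the sources used here.

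H2-Oa, the alpha chain gene of H2-DO, was read at 5.75, 65.6 (CD), 45.3 and 21.1 CPM (HFD) in pop4, at no more than 0.890 in any other adipose library, and at 0 to 25 (median 7.05) in monocytes. The 4 pop4 libraries spread widely but did not overlap the other adipose libraries. The gene model BC051537 lies on the opposite strand over H2-Oa and was read at 9.28 CPM at most. Without stated strand in the counting, reads of the pair cannot be told apart.

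H2-Ob, the beta chain gene of H2-DO, followed no gate. It was read at 15.7, 63.3 (CD), 44.3 and 13.6 CPM (HFD) in pop1, at 8.61, 31.3 (CD), 3.57 and 3.03 (HFD) in pop2, at 1.60, 43.3 (CD), 1.77 and 4.44 (HFD) in pop3, at 59.8, 34.4 (CD), 76.1 and 2.10 (HFD) in pop4 and at 0.127 to 38.4 (median 14.9) in monocytes. All 5 populations overlapped, and H2-Ob was called in none of the 16 comparisons, with or without DESeq2 (unadjusted p at least 0.0819).

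Against pop4, pop2 had 4 of the 10 genes lower and 0 higher, with 21.2% of all tested genes called in either direction and 8.76% lower. H2-DMa was 2.38-fold lower (log2 difference -1.25, SE 0.23, adjusted p = 0.000768) and H2-DMb1 2.09-fold lower (-1.07, SE 0.19, adjusted p = 0.000727). H2-DMb2 had a fitted log2 difference of -6.81 (SE 1.12, adjusted p = 0.000305) and H2-Oa of -7.34 (SE 1.90, adjusted p = 0.0114). As pop2 was near the floor for both, those fitted sizes depend on the prior count. Cd74, H2-Aa, H2-Ab1 and H2-Eb1 differed by -0.19, 0.01, -0.24 and -0.08 on the log2 scale and did not pass the test, and with DESeq2 size factors or upper-quartile scaling the signs of H2-Eb1 and Cd74 turned. Without both pop2 HFD libraries, where pop2 and pop4 were compared in CD libraries only, 2 genes remained called, H2-DMb1 and H2-DMb2. H2-Oa was also lost without pop2 CD library 7 or pop2 HFD library 3.

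The comparison of pop3 with pop4, both Tim4-, called 2 of the 10 genes, both lower in pop3, with 6.57% of all tested genes called and 2.32% lower. H2-DMb2 was lower in pop3 (log2 difference -4.11, SE 0.97, adjusted p = 0.0140), 17.2-fold as fitted, and H2-Oa was lower (-5.97, SE 1.74, adjusted p = 0.0444). H2-DMa (-0.56, SE 0.22, adjusted p = 0.122) and H2-DMb1 (-0.51, SE 0.19, adjusted p = 0.0975) missed the threshold. The H2-DMb2 call was lost when any 1 of the 4 pop3 libraries or pop4 CD library 8 was left out, and the H2-Oa call when any 1 of the 8 libraries was. Background reads move with both comparisons, since all 4 pop4 libraries lie below every pop2 and pop3 library in the receptor sum. With that sum as a covariate 0 of the 10 genes were called against pop2 or pop3, with no change of direction among the genes called without it.

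Pop2 and pop3, both gated MHCII high, differed in 0 of the 10 genes, with 1.03% of all tested genes called. H2-DMa (-0.69, SE 0.22, adjusted p = 0.155), H2-DMb1 (-0.55, SE 0.19, adjusted p = 0.193) and H2-DMb2 (-2.70, SE 0.96, adjusted p = 0.214) had an unadjusted p under 0.05, each lower in pop2, and DESeq2 called H2-DMb2 alone. Without pop2 HFD library 3 the H2-DMa difference was -1.22, a value that rests on library 2 (87.3 CPM), then alone in its group. The log2 differences of H2-Aa, H2-Ab1 and H2-Eb1 were -0.02, 0.03 and -0.03 (SE 0.17, 0.23 and 0.38), and those of H2-Aa and H2-Eb1 turned sign with DESeq2 size factors or upper-quartile scaling.

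**Figure D2:**
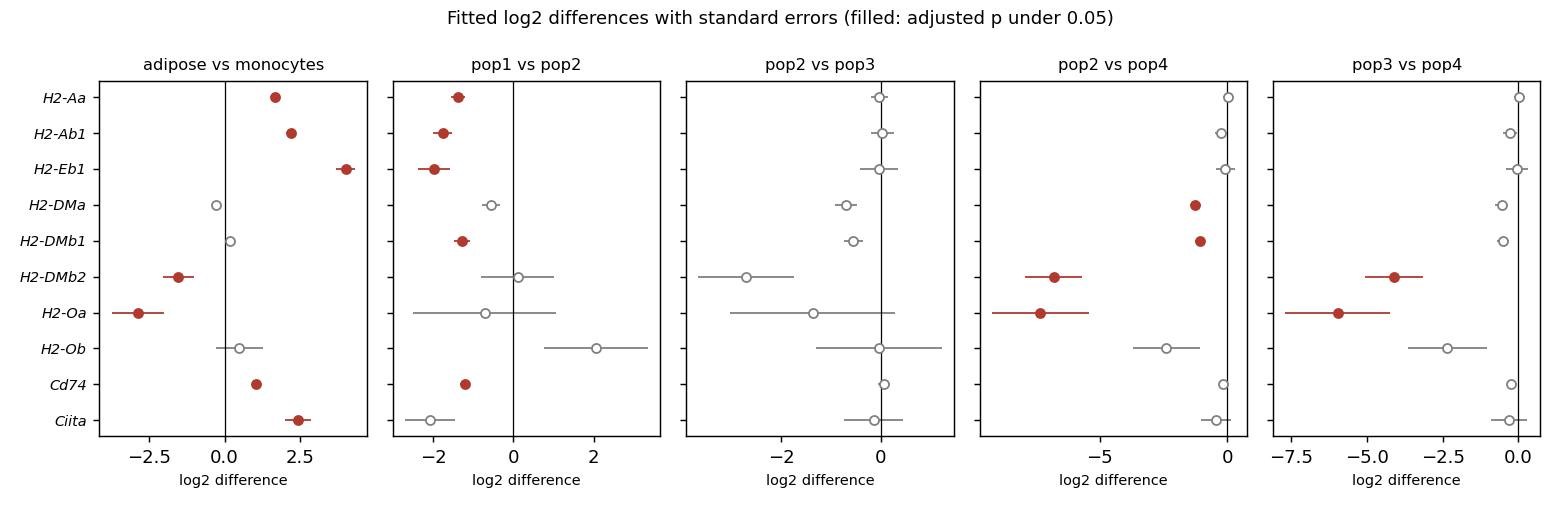
Fitted log2 differences (x axis, scaled separately in each panel) of the 10 genes with their standard errors as bars, filled where the adjusted p was under 0.05. The classical chains and Cd74 separate pop1 from pop2 and lie near 0 in the 3 panels that compare pop2, pop3 and pop4, where the H2-DM genes and H2-Oa lie to the left.

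The balance between editor and chains was measured in each library as the summed per-kilobase CPM of the 3 H2-DM genes over that of H2-Aa, H2-Ab1 and H2-Eb1. This ratio was 0.259, 0.192 (CD), 0.186 and 0.169 (HFD) in pop1, 0.139, 0.146 (CD), 0.0718 and 0.139 (HFD) in pop2, 0.163, 0.174 (CD), 0.203 and 0.213 (HFD) in pop3 and 0.268, 0.285 (CD), 0.296 and 0.284 (HFD) in pop4. Monocytes ranged from 0.573 to 1.20. Pop2 lay below pop1 and below pop3, and pop3 below pop4, in each case without overlap.

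The chains in the denominator include the genes of the protein that divided pop1 from pop2. The gate therefore enters the comparison of those 2 populations, here and for the Cd74 ratio below. On the log2 scale the H2-DM ratio was 0.74 higher in pop1 than in pop2, 0.65 lower in pop2 than in pop3 and 0.60 lower in pop3 than in pop4. Each of these reached p = 0.0286 in a 2-sided exact permutation test over 4 against 4 libraries, the smallest value that design allows, and 0.0381 after Benjamini-Hochberg adjustment over the 8 ratio tests. Within the CD libraries alone the differences were 0.65, -0.24 and -0.72, where an exact permutation test of 2 against 2 cannot go below p = 0.333. Adipose libraries as a whole were 2.22 lower than monocytes (n = 16 and 9, permutation p = 2e-05, the smallest the 100000 resamples give).

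The ratio of Cd74 to the same chains varied less within the tissue. Its geometric mean was 0.455 in pop1, 0.344 in pop2, 0.328 in pop3, 0.371 in pop4 and 0.766 in monocytes. Pop1 was 0.40 above pop2 (log2, exact permutation p = 0.0857, adjusted p = 0.0979), pop2 0.07 above pop3 (exact permutation p = 0.429) and pop3 0.18 below pop4 (exact permutation p = 0.0286, adjusted p = 0.0381). Adipose libraries were 1.04 lower than monocytes (n = 16 and 9, permutation p = 2e-05).

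**Figure D3:**
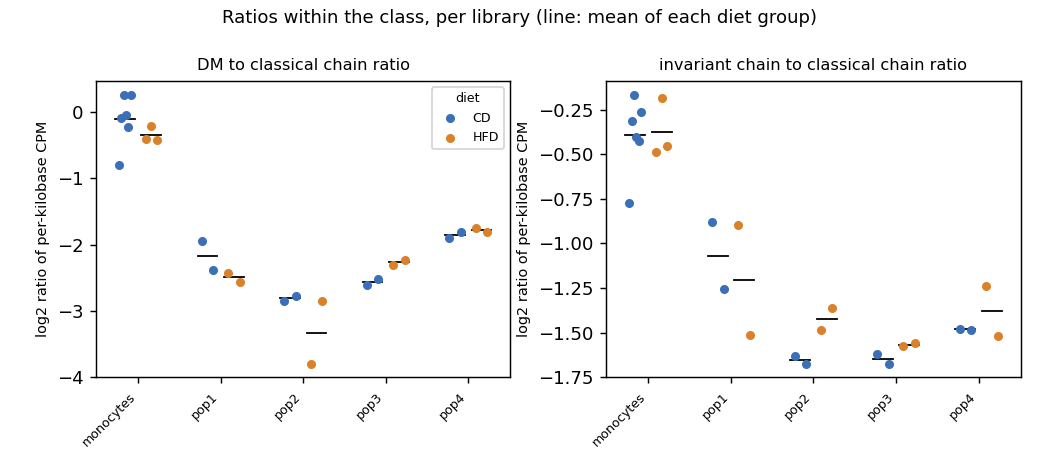
Log2 ratio of per-kilobase CPM (y axis) of the H2-DM genes (left) and of Cd74 (right) to the classical chains in each library, by population and diet, with a line at each diet group's mean. The H2-DM ratio falls lowest in pop2, with HFD library 2 at a ratio of 0.0718, and rises through pop3 to pop4, and all adipose libraries lie below the monocytes on both ratios.

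Ciita encodes the coactivator on which the family depends. It was read at 6.56, 19.3 (CD), 5.37 and 43.2 CPM (HFD) in pop1, at 39.7, 37.0 (CD), 121 and 171 (HFD) in pop2, at 37.4, 73.1 (CD), 115 and 133 (HFD) in pop3, at 92.7, 102 (CD), 116 and 98.3 (HFD) in pop4 and at 1.86 to 20.0 (median 10.5) in monocytes. Pop4 was narrow, and pop2 spread so widely that it overlapped pop1, pop3 and pop4. The difference of pop1 from pop2 (-2.08, SE 0.63) missed the threshold in edgeR (adjusted p = 0.189) and passed in DESeq2 (adjusted p = 0.0171). HFD library 3 had the highest Ciita, H2-Ab1 and H2-Eb1 of the pop1 libraries.

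Compared with blood monocytes, adipose cells as a whole had 5 of the 10 genes higher and 2 lower, with 37.0% of all tested genes called and 18.5% in each direction. H2-Eb1 rose 15.9-fold (log2 difference 3.99, SE 0.30, adjusted p = 1.90e-09), H2-Ab1 4.56-fold (2.19, SE 0.16), H2-Aa 3.19-fold (1.68, SE 0.12), Cd74 2.04-fold (1.03, SE 0.08) and Ciita 5.30-fold (2.41, SE 0.43, adjusted p = 0.000185). H2-DMb2 (-1.52, SE 0.51, adjusted p = 0.0245) and H2-Oa (-2.86, SE 0.87, adjusted p = 0.0143) were lower in the fit, which averages the log levels of the populations, and both calls were lost without HFD monocyte library 3. Their mean levels were not lower, at 16.4 CPM in adipose libraries and 8.12 in monocytes for H2-DMb2 and at 8.82 and 8.78 for H2-Oa, with pop4 above the monocyte mean and pop1, pop2 and pop3 below it. With the receptor sum as a covariate the calls of Ciita (adjusted p = 0.0590), H2-DMb2 and H2-Oa were lost. H2-DMa (-0.29, SE 0.13, adjusted p = 0.0939) and H2-DMb1 (0.17, SE 0.12, adjusted p = 0.251) also had populations on both sides of the monocyte level. H2-DMa was called lower without pop1 HFD library 3, pop2 CD library 7, either pop2 HFD library or pop3 CD library 8, and also with no filter on low counts (-0.40, adjusted p = 0.0292), and H2-DMb1 was called higher with DESeq2 size factors and in DESeq2.

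By population, pop1 had 3 genes higher (H2-Aa, H2-Ab1 and H2-Eb1) and 4 lower (the 3 H2-DM genes and H2-Oa) than monocytes, with 32.8% of tested genes called, 19.1% higher and 13.7% lower. H2-DMa was 2.30-fold lower (log2 difference -1.20, SE 0.20, adjusted p = 0.000155) and H2-DMb1 2.28-fold lower (-1.19, SE 0.17, adjusted p = 3.05e-05), and Cd74 differed by 0.09 (SE 0.10, adjusted p = 0.513), a difference that passed with DESeq2 size factors (0.28, adjusted p = 0.0454). The H2-Ab1 call of pop1 (0.82, SE 0.20, adjusted p = 0.00357) was lost without pop1 CD library 8 or pop1 HFD library 3. Its H2-Oa call was lost without HFD monocyte library 3, either pop1 CD library or pop1 HFD library 2. With the receptor sum as a covariate pop1 kept 3 calls, H2-Eb1 higher and H2-DMa and H2-DMb1 lower.

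Pop2 had 5 higher and 3 lower than monocytes, where 40.0% of tested genes were called, 24.7% higher and 15.3% lower. Pop3 had 6 higher and 0 lower (25.2% of tested genes called, 15.7% higher), and pop4 8 higher and 0 lower (12.5% called, 7.16% higher). The 5 higher in pop2 were Cd74, Ciita and the 3 classical chain genes, to which pop3 added H2-DMb1 (0.64, SE 0.16, adjusted p = 0.00634) and pop4 all 3 H2-DM genes. In pop4 H2-DMb2 was 7.38-fold above monocytes (2.88, SE 0.73, adjusted p = 0.00979), a call lost without pop4 CD library 8. The pop4 call of H2-DMa (0.62, SE 0.19, adjusted p = 0.0350) was lost in 11 of 19 alternatives, among them the loss of any 1 pop4 library, any 1 HFD monocyte library, or CD monocyte library 2 or 6. In pop2 the call of H2-DMa lower than monocytes (-0.64, SE 0.20, adjusted p = 0.0163) was lost in 7 of 20 alternatives, among them either other scaling, DESeq2, the receptor sum as a covariate and the loss of pop2 HFD library 2 (highest adjusted p over all alternatives 0.722), and that of H2-Oa without any 1 pop2 library or HFD monocyte library 3. Without both pop2 HFD libraries, where pop2 and monocytes were compared in CD libraries only, pop2 had 5 calls, and Ciita was among those lost. With the receptor sum as a covariate Cd74 and the 3 classical chain genes remained called in pop2, pop3 and pop4 against monocytes, and Ciita in pop4 but not in pop2 or pop3.

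Diet was tested within each population. In pop2, 1 of the 10 genes was called, with 4.19% of tested genes called and 3.44% lower: H2-DMa was 2.18-fold lower on HFD (log2 difference -1.12, SE 0.32, adjusted p = 0.0497). That call rests on pop2 HFD library 2, without which it was lost, as it was without pop2 CD library 8, with either other scaling, in DESeq2 and in a fit of the adipose libraries alone. Ciita was 1.93 higher on HFD in pop2 (SE 0.88, unadjusted p = 0.0398, adjusted p = 0.264) and 1.16 higher in pop3 (SE 0.86, adjusted p = 0.662), and was called in neither. In both populations the HFD libraries lay above the CD libraries. An exact permutation test of 2 against 2 cannot go below p = 0.333, so that lack of overlap decides nothing.

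In pop1, pop3, pop4 and monocytes 0 of the 10 genes were called by edgeR or by DESeq2, with 0.436%, 0.0943%, 0.0354% and 0.00590% of tested genes called. An unadjusted p under 0.05 was seen for 0 genes in pop1, pop3 and pop4 and for Cd74 in monocytes (0.25, SE 0.12, adjusted p = 0.700). H2-Aa was lower on HFD in pop1 (-0.31), pop2 (-0.40), pop3 (-0.32) and pop4 (-0.15), and the mean of these, -0.30 (SE 0.12), had an unadjusted p of 0.0232 and an adjusted p of 0.170. Over the mean of the 4 adipose populations 0 of the 10 genes were called (5.34% of tested genes called), with 3 at an unadjusted p under 0.05 (H2-Aa, H2-DMa and Ciita) and 0 in DESeq2. Without pop2 HFD library 3 the H2-DMa difference over adipose tissue was -0.60, a value that rests on library 2 (87.3 CPM), then alone in its group. The diet effect of Tim4+ populations differed from that of Tim4- populations in 0 of the 10 genes (0.637% of tested genes called), with H2-DMa alone at an unadjusted p under 0.05 and 0 in DESeq2. Without pop2 HFD library 3 that H2-DMa difference was -1.26, again with library 2 alone in its group. In monocytes, where CD libraries carry 2 title series, the 10 genes differed between the series with adjusted p of at least 0.616.

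**Figure D4:**
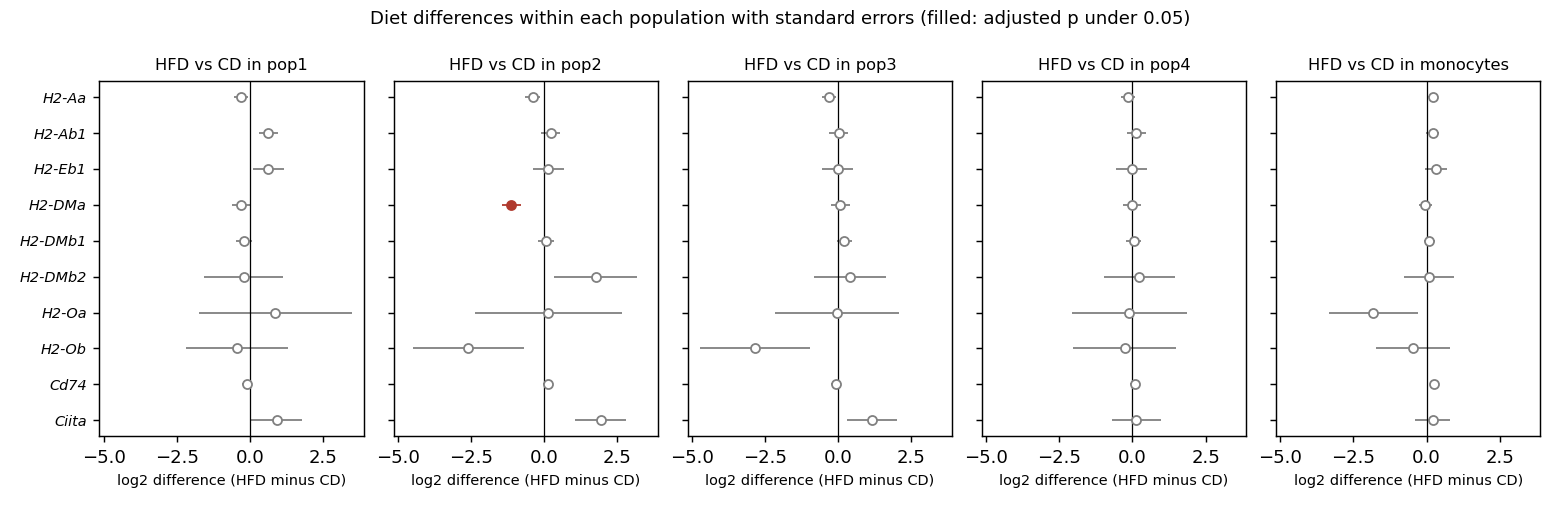
Log2 differences of HFD from CD (x axis, same scale in all panels) of the 10 genes in each population, with standard errors as bars, filled where the adjusted p was under 0.05. H2-DMa in pop2 is the only filled point, and the bars of H2-DMb2, H2-Oa and H2-Ob are the longest.

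Other genes of the pathway were taken from lists. Of 17 genes of class II transcription, among them those of the RFX and NF-Y subunits and the interferon-gamma pathway that induces Ciita, 0 were higher and 9 lower in adipose cells than in monocytes, where 18.5% of all tested genes were called in each direction and Ciita was higher. Socs1, an inhibitor of cytokine signalling, had a log2 difference of -5.01 (SE 0.92) and Irf8 of -1.82 (SE 0.22). Between pop1 and pop2 1 of the 17 was called, beside 0.466% of all tested genes. It was the interferon-gamma receptor gene Ifngr2 (-0.95, SE 0.21, adjusted p = 0.0365), at 103 ± 40.8 CPM in pop1 and 198 ± 78.6 in pop2 (SD, n = 4 each).

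Of the 17 genes, pop2 had 2 higher and 1 lower than pop4, beside 21.2% of all tested genes called in either direction. Pop3 had 1 higher and 1 lower than pop4, beside 6.57%. Spi1, which encodes PU.1, was read at 198 ± 67.8 CPM in pop4, 49.2 ± 17.8 in pop2 and 93.5 ± 36.3 in pop3 (SD, n = 4 each), with log2 differences of pop2 (-2.02, SE 0.28, adjusted p = 4.41e-05) and pop3 (-1.12, SE 0.27, adjusted p = 0.0159) from pop4. Irf8 was lower in pop4, at 23.4 ± 6.02 CPM against 60.5 ± 29.8 in pop2 and 96.2 ± 24.3 in pop3, and Irf1 was higher in pop2 than in pop4 (1.75, SE 0.37). Pop2 and pop3 differed in 0 of the 17, beside 1.03% of all tested genes called. On HFD, over adipose tissue, 4 of the 17 were higher, among them Irf1 (0.90, SE 0.25) and Spi1 (0.73, SE 0.19), and 1 lower, beside 5.34% of all tested genes called. The largest of these fitted values, Socs1 (5.10, SE 1.34), rested on 0 CPM in all pop1 and pop2 CD libraries and at most 8.25 CPM in any adipose library.

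Of 9 genes of invariant chain cleavage and antigen processing, 4 were higher and 4 lower in adipose cells than in monocytes (18.5% of all tested genes in each direction). The endosomal proteases Lgmn (log2 difference 1.48, SE 0.20) and Ctsl (1.46, SE 0.17) were higher, and Sppl2a, a protease that clears the invariant chain stump, was lower (-1.02, SE 0.10). Pop1 and pop2 differed in 0 of the 9 (0.466% of all tested genes called), as did pop2 and pop3 (1.03%). Pop2 exceeded pop4 in 3 (Lgmn 1.24, SE 0.30, and Ctsl 0.76, SE 0.26, among them) and had less Ctsz (-1.20, SE 0.19), beside 21.2% of all tested genes called. Pop3 had less Ctsz (-1.13, SE 0.19) and Ctsd (-0.71, SE 0.21) than pop4 and more Ctsb (0.53, SE 0.10), beside 6.57%. Ctsz rose on HFD in pop3 (1.42, SE 0.27, adjusted p = 0.0345), and Ctss fell over adipose tissue (-0.29, SE 0.07).

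Genes of class II turnover at the surface changed between blood and tissue in both directions. Cd83, which protects class II from ubiquitination, was higher in adipose cells (log2 difference 3.0, SE 0.59) and so was the ubiquitin ligase gene March8 (1.79, SE 0.33), whereas March1, the ligase gene that acts on class II in antigen-presenting cells, was lower (-1.02, SE 0.15). None of the 3 was called in the 4 comparisons between adipose populations that were run (pop1 with pop2, and pop2, pop3 and pop4 with one another) or between diets. For class I presentation, 2 of 14 genes were higher and 8 lower in adipose cells than in monocytes (18.5% of all tested genes in each direction), the lower ones including its coactivator gene Nlrc5 (-1.50, SE 0.46), Tap1 (-1.24, SE 0.23) and Erap1 (-1.20, SE 0.31). Between pop1 and pop2, where only 0.466% of all tested genes were called, 0 of the 14 class I genes were, and the median log2 difference of the 14 was -0.02. Pop2 had 3 class I genes higher and 3 lower than pop4 (21.2% of all tested genes called, 8.76% lower), the lower ones being Tap1 (-1.16, SE 0.39), Psmb8 (-1.15, SE 0.25) and Psmb10 (-0.91, SE 0.26).

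Markers of other cells that use class II were measured beside the pop4 values. Of 11 B cell markers, summed levels were 6.40, 16.4 (CD), 130 and 78.3 CPM (HFD) in pop4, 58.4 to 119 in pop3, 4.64 to 58.1 in pop2, 9.64 to 32.6 in pop1 and 11.6 to 124 in monocytes. Of the 10 that were tested, 0 were called by edgeR between pop2 and pop4 (21.2% of all tested genes) or between pop3 and pop4 (6.57%). Ebf1 between pop3 and pop4 was the 1 with an unadjusted p under 0.05 (log2 difference 3.22, SE 1.12, adjusted p = 0.0797). Pop4 CD library 8, with the highest H2-Oa (65.6 CPM) and H2-DMb2 (82.1 CPM) of all libraries, had Cd79b at 9.69 and Cd22 at 4.44, both above pop4 CD library 7 (2.35 and 0.261), and the other 9 markers at no more than 0.807, with Pax5 at 0. Pop3 CD library 7 had the highest B cell sum of pop3 (119 CPM) and H2-Oa at 0.890. The part of B cell markers in the pop4 levels was not tested.

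Of 11 dendritic cell markers, sums were 683 to 925 CPM in pop4, 505 to 690 in pop3, 538 to 1361 in pop2, 585 to 987 in pop1 and 289 to 859 in monocytes. Against pop4, pop2 had 4 of the 11 lower and 1 higher, beside 21.2% of all tested genes called. The lower ones were Flt3 (log2 difference -3.62, SE 0.93), Clec9a (-3.69, SE 1.26), Xcr1 (-2.42, SE 0.77) and Batf3 (-1.0, SE 0.35), the median of the 11 was -0.96, and that of all tested genes 0.18. Between pop3 and pop4, where 6.57% of tested genes were called, 1 was lower (Flt3, -3.30, SE 0.90) and 1 higher, with a median of -1.22 against 0.17 for all tested genes. Siglech, which marks plasmacytoid dendritic cells, was the higher one in both and was at or under 3 counts in every pop4 library. Within pop4, Clec9a was at 0.131, 9.95 (CD), 11.5 and 18.7 CPM (HFD), and Flt3 at 93.1, 8.74 (CD), 8.62 and 0.741 (HFD). CD library 7, where H2-Oa and H2-DMb2 were lowest in the group, was thus lowest in Clec9a and highest in Flt3. The part of dendritic cell markers in the pop4 levels was not tested.

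Genes whose pattern was most like the class were sought by the correlation, over the 16 adipose libraries, of log2 CPM with the mean log2 CPM of Cd74, H2-Aa, H2-Ab1 and H2-Eb1. These correlations are descriptions across libraries that share populations, diets and background, and genes were ranked among 16961. H2-DMb1 (r = 0.891) ranked 9th and Ciita (r = 0.878) 11th, counting the 4 genes that define the mean. H2-DMa (r = 0.668) ranked 129th, H2-DMb2 (r = 0.496) 692nd, H2-Oa (r = 0.475) 821st and H2-Ob (r = -0.301) 13855th. These r are Pearson correlations, and the order changed with Spearman rank correlation. By the latter H2-DMb1 stood at 0.815, H2-DMa at 0.771, H2-DMb2 at 0.674, Ciita at 0.556, H2-Oa at 0.529 and H2-Ob at -0.003.

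Outside the class the 10 most alike were Rasgrp1 (r = 0.952), Mir5107, Il1rl1 (r = 0.908), Grk3, 1700025G04Rik, Cks1b, Evi2b, Ccr2, Ptpn22 and Axl (r = 0.824). The model of Mir5107 lies within that of Cd74 on the same strand, so its likeness is built in. Rasgrp1, an activator of Ras, was read at 3.04 ± 3.19 CPM in pop1, 52.7 ± 26.3 in pop2, 87.0 ± 37.7 in pop3 and 141 ± 5.39 in pop4 (SD, n = 4 each). Il1rl1, the receptor gene of interleukin-33, was at 28.0 ± 20.6, 118 ± 23.1, 182 ± 85.3 and 260 ± 12.7 in the same order.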

How the data were processed

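The authors deposited raw read counts per gene model for 25 libraries. STAR 2.5.3a, HOMER and the mm10 genome are named, per the submitters' processing notes. Strand, duplicate removal and the treatment of reads with several matches are not given in the sources used here. The deposited counts were scaled by TMM and tested with the quasi-likelihood F test of edgeR 4.0.16, run in R 4.3.3 (filterByExpr by group, robust glmQLFit, Benjamini-Hochberg adjustment, threshold 0.05) in 1 fit of 10 group means over 16961 genes, which left 15 residual degrees of freedom (common biological coefficient of variation 0.749). CPM are counts per 1 M of the scaled library, and CPM per kb divide them by the deposited model length. Standard errors were taken from the fitted difference and its F value. Ratios were compared by 2-sided permutation tests over libraries (scipy 1.17.1). The main tests were exact except for adipose libraries (n = 16) against monocytes (n = 9), where 100000 resamples were drawn. The fit was tested on simulated data with less spread than these libraries. Only genes well above the floor were changed there, so low-count genes were not covered. Alternatives were 2 other scalings, no filter, the background receptor sum as covariate, a replicate block, the adipose libraries alone, DESeq2 1.42.0, and leaving out each library and both pop2 HFD libraries. With both pop2 HFD libraries left out, pop2 was compared with each other population in CD libraries only.

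The 10 genes and all lists were chosen with earlier results of these data known. All 10 genes are named, as are at most the 3 called genes of each list with the largest log2 difference per comparison, and the 10 genes most correlated with the class. Marker genes, gate genes and levels outside that rule were chosen after their values were seen. Values of some list genes are not reported here.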

Additional observations from a re-analysis of the deposited data

How the results depend on the processing

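Of the member values recomputed under the alternatives, 2637 kept their side of the threshold, 86 lost a call, 17 gained one and 0 reversed with a call. Values uncalled in both settings were counted as kept even where their sign turned, as for H2-Aa and H2-Eb1 between pop2 and pop3. With the background receptor sum as a covariate, the number of called genes was 4 for adipose cells, 3 for pop1 and 4 for pop2 against monocytes, and 0 for pop2 or pop3 against pop4, where fewer degrees of freedom remain and the sum differs between the populations. For diet in pop2 it was 0 with that covariate, with DESeq2 size factors, with upper-quartile factors, with the adipose libraries alone and in DESeq2. Without both pop2 HFD libraries, comparing CD libraries only, it was 5 for pop2 against monocytes and 2 for pop2 against pop4. In DESeq2 it was 1 for pop2 against pop3. The cause was not tested.

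Same-numbered libraries did not deviate together (12 distinct r among adipose pairs, -0.015 to 0.075, since deviations mirror each other in groups of 2, with 0 above 0.1). With the replicate block, 1 gene was called for pop3 against pop4, and 5 for adipose cells, 7 for pop2, 5 for pop3 and 6 for pop4 against monocytes. The calls it ended were H2-Oa between pop3 and pop4 and, against monocytes, H2-DMb2 and H2-Oa for adipose cells, H2-DMa for pop2 and pop4, H2-DMb1 for pop3 and H2-DMb2 for pop4. Flipping signs within the 4 pairs of a replicate block left the H2-DM ratio differences at 0.74, -0.65 and -0.60 and the Cd74 ratio of pop3 against pop4 at -0.18, where p cannot go below 0.125. In CD libraries alone these were 0.65, -0.24, -0.72 and -0.17 (exact permutation p = 0.333, the smallest possible). Monocyte numbers 1 to 3 occur in both diets (r -0.041 to 0.040 over 3 pairs), and a replicate block on them, an alternative added after seeing the data, called 0 genes. No paired analysis was possible for diet in adipose populations because each number belongs to 1 diet there.

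Leaving out 1 library gave 5 to 8 called genes for adipose cells, 5 to 7 for pop1, 6 to 8 for pop2 and 6 to 8 for pop4 against monocytes, and 6 throughout for pop3. It gave 4 to 6 for pop1 against pop2, 0 to 1 for pop2 against pop3, 3 to 4 for pop2 against pop4, 0 to 1 for pop3 against pop4, 0 to 1 for diet in pop2, over adipose cells and between Tim4+ and Tim4- populations, and 0 for diet elsewhere. The H2-DM ratio then differed by 0.50 to 0.84 (pop1 against pop2), -0.75 to -0.41 (pop2 against pop3) and -0.66 to -0.53 (pop3 against pop4), and the Cd74 ratio of pop3 against pop4 by -0.21 to -0.11, where an exact permutation test of 3 against 4 cannot go below p = 0.0571. Other scalings moved the median log2 difference of all genes by up to 0.25 (pop2 against monocytes). H2-DMb2, H2-Oa and H2-Ob have few counts in most populations, and libraries of 200 cells limit their precision.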
